A study of Arabidopsis thaliana with 4 samples.

Results

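A set of 144 Arabidopsis thaliana genes, of 25356 represented on a one-colour Agilent expression array, was well above background on both arrays whose files are labelled ced2 and on neither array whose files are labelled WT. Each gene was represented by its brightest probe, and its mean log2 signal had to be more than 1 higher in the ced2 files. The genes S8H, IPT7 and PR1 met the same conditions and were left out by the rule, which would otherwise have taken 147 genes. The members were chosen by the detection flags and the log2 signals of these same 4 arrays, so their levels and differences are a description, and no test is offered for them.

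The study measured total RNA of whole seedlings of ced2, a mutant, and of a wild type that carries luciferase behind the NCED3 promoter (NCED3pro:LUC). The labels give the ecotype of every sample as gl1-Col0, and those of ced2 state no transgene and no mutated gene. All seedlings were 14 d old and had spent 6 h in 40% polyethylene glycol (PEG), which withdraws water from tissue, so no unstressed seedlings stand beside them. There were 2 samples per genotype, each a pool of 20 plants. NCED3, whose promoter drives the reporter, had log2 signals of 0.68 and 0.67 in the WT files and -0.65 and -0.67 in the ced2 files. VSR1, which encodes a vacuolar sorting receptor, had 2.80 and 2.87 in the WT files and -0.85 and -0.82 in the ced2 files, a difference of -3.67.

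The genotype labels conflict between the deposited files. Each column of the authors' value table held the values of a scanner file of the opposite genotype label (r between 0.999918 and 0.999977 across probes), and correlations with the scanner file of its own label lay between -0.573 and -0.369. The names ced2 and WT below follow the scanner files. Under the labels of the authors' value table, the same 144 genes would be brighter in WT, and their median difference was -2.17.

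On such an array a labelled copy of each RNA binds to a short probe, and the scanner software compares the brightness of a spot with the brightness around it. Transcripts that are rare, or that are made in few cells of a whole seedling, give spots near that background. A gene can therefore cross the detection limit after a modest change in brightness. In bulk tissue, fewer cells that make a transcript and less transcript per cell cannot be told apart.

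The members were dim genes throughout. Their background-subtracted intensity, in the scanner's linear units, ran from -3.57 to 16.6 on WT replicate 1 (median 9.78) and from -4.66 to 13.1 on WT replicate 2 (median 8.59). It ran from 30.0 to 166 on ced2 replicate 1 (median 46.7) and from 18.8 to 191 on ced2 replicate 2 (median 53.7). On every member the dimmer ced2 array lay above the brighter WT array, and the choice of members all but fixes that order. Even on the ced2 arrays the brightest member stood at the 30.4 percentile of all loci and the median member at the 22.2 percentile. For scale, the 75th percentile of probe intensity was 3342 and 2807 on the WT arrays and 3724 and 4465 on the ced2 arrays, so the ced2 arrays were brighter overall.

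In log2 units relative to that percentile, the lowest signal that counted as well above background was -7.89 and -7.92 on the WT arrays, -7.14 on ced2 replicate 1 and -8.05 on ced2 replicate 2. The members had median log2 signals of -8.49 and -8.37 in the WT files and -6.34 and -6.35 in the ced2 files. Differences (ced2 files minus WT files) spanned 1.00 to 4.61 with a median of 2.17, beside a median of 0.05 over all 20835 genes tested with limma. 82 members exceeded 2 and 34 exceeded 3. The limma fit called 137 of the 144 higher at an adjusted p under 0.05, where 42.4% of all genes tested were called higher and 77.9% were called in either direction. Since the rule used this contrast, nothing is read from that count.

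**Figure D1:**
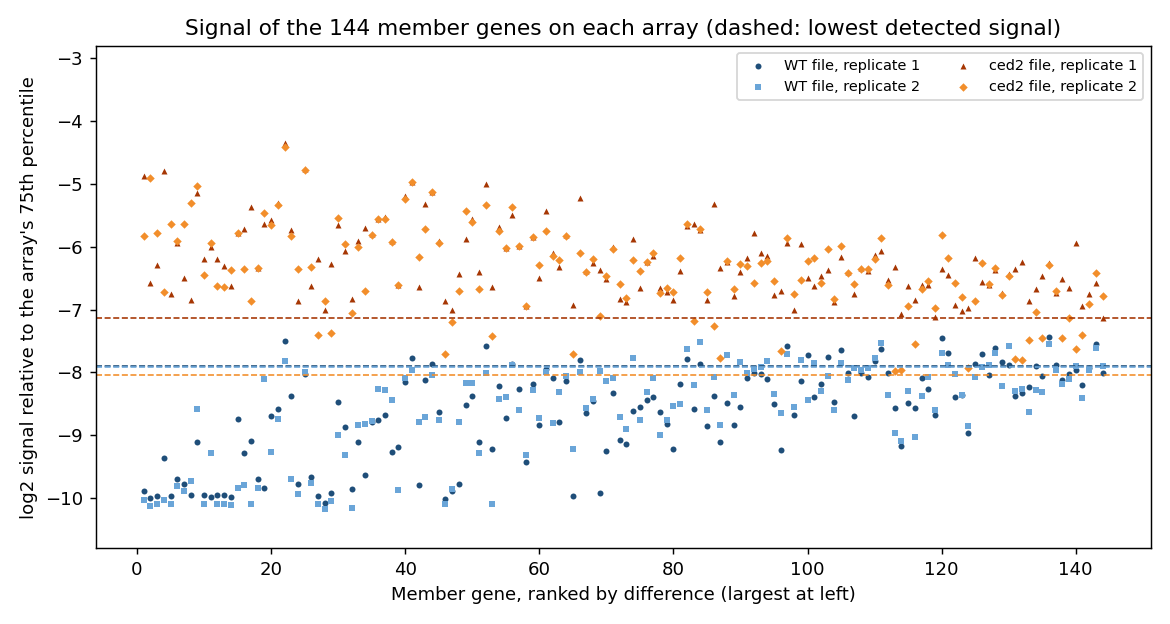
Log2 signal of the 144 members on each of the 4 arrays, relative to the 75th percentile of the array (y axis), against the rank of the gene by its difference (x axis). Points are single arrays and dashed lines are the lowest signal well above background on the array of that colour; WT values of the leading genes lie near -10, and the ced2 values of most members lie between -5 and -7.

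The label "detected only in the ced2 scans" holds for the stricter of the scanner's detection flags and not for the weaker. That weaker flag marks a spot whose brightness differs from its background beyond noise. By it, 118 of the 144 members (81.9%) were above background on both WT arrays, 10 on 1 of them and 16 on none. Most members were thus dim in the WT files and not without signal. Median differences were 1.94, 3.24 and 3.55 for these 3 classes in the same order.

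Most of the largest differences rested on a WT value at the level of the noise. Where a WT spot failed the weaker flag, its processed signal was 1.001 to 1.006 times the software's own error of that spot. There were 42 such values among the members, between 2.43 and 4.13 in intensity. Of the 20 members with the largest difference, 15 had at least 1 such value and 10 had it on both WT arrays. Folds are therefore given as bounds: the ced2 mean is set against the mean, per WT array, of the higher of the lowest detected signal and the gene's own signal. These bounds ran from 1.31-fold to 9.68-fold with a median of 2.84-fold. By them, 122 members were at least 2-fold higher and 29 at least 4-fold. The bound limits the WT side alone and takes the ced2 mean as measured. Where the ced2 arrays lie apart, as in AT3G56180, AT2G20465 and RGF8, the dimmer ced2 array gives a lower ratio. Nor does the bound cover other treatments of the background, and "at least" is meant below in this limited sense. In 34 members the gene's own signal was the higher on 1 or both WT arrays, so the bound is there partly or wholly a measured ratio.

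**Figure D2:**
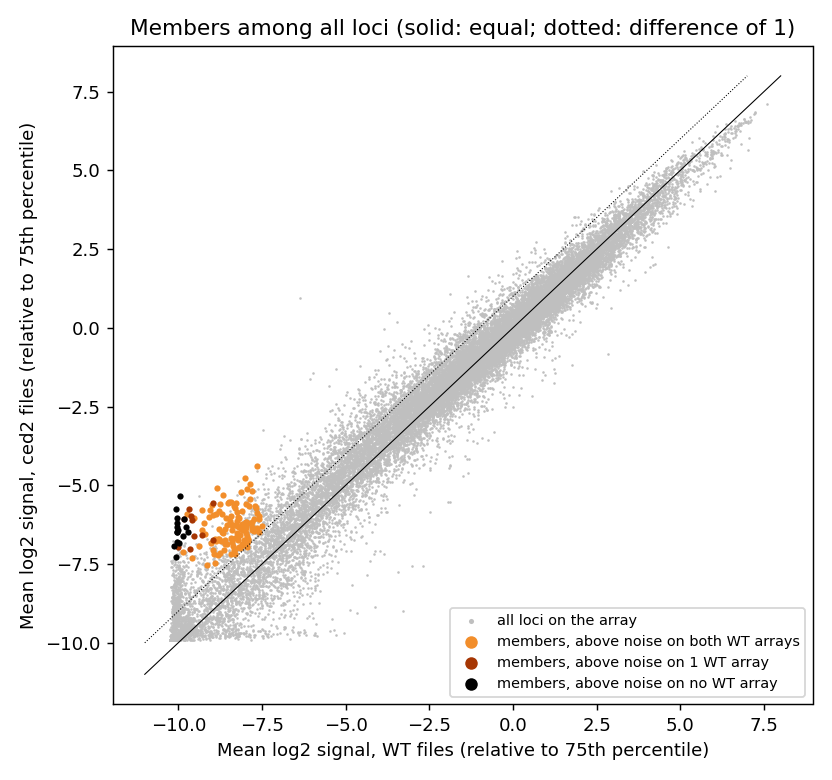
Mean log2 signal of all 25356 loci in the ced2 files (y axis) against that in the WT files (x axis), both relative to the 75th percentile of each array. Coloured points are the 144 members by the number of WT arrays on which they passed the weaker flag (118 on both, 10 on 1, 16 on none); they sit at the dim corner, above the dotted line of a difference of 1.

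The replicates of a member differed more than those of a typical gene. The median absolute gap between the ced2 arrays was 0.17 for members and 0.0330 for all genes tested, and between the WT arrays 0.20 and 0.0449. Both medians are over single genes on the log2 scale. Members are dimmer than most genes tested, and no comparison with other genes of like brightness was made. The wider gaps are therefore not read as a trait of the members. In 15 members the ced2 arrays lay more than 1 apart, and in 12 of these replicate 1 was the brighter. The choice of members favours that order. The lowest detected signal was -7.14 on ced2 replicate 1 and -8.05 on ced2 replicate 2, so a member could lie lower on replicate 2. Nothing is read from the 12. AT1G49640 had the widest gap, with log2 signals of -5.32 and -7.27. At the other end, 55 members agreed within 0.1. A limma adjusted p of at least 0.05 was found for 7 members (AT1G20132, AT1G49640, AT5G55270, AT4G18150, AT1G30740, AT4G26170 and AT1G61710), named after their values were seen.

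Among the members with a known role, MYB72 is the one that the fixed list of iron deficiency genes holds. MYB72 is a transcription factor of the root that is induced when iron is short and that drives genes for iron-mobilizing coumarins. Its background-subtracted intensity was 4.09 and 3.27 for WT replicates 1 and 2, against 63.3 and 76.7 for ced2 replicates 1 and 2. Both ced2 arrays agreed closely, and neither WT array was well above background, although both passed the weaker flag. The log2 difference was 3.83, and MYB72 was at least 3.95-fold higher in the ced2 files.

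The other iron deficiency genes, which are not members, were all higher in the ced2 files as well. Of the 21 on the array, 21 rose (limma adjusted p between 0.00016 and 0.00166), where 42.4% of all genes tested were called higher, with differences from 0.41 to 4.54 and a median of 1.94. MYB10, the close relative of MYB72 that acts beside it, rose by 2.15, from log2 signals of -5.10 and -5.16 to -3.00 and -2.95. FIT, the bHLH factor upstream of both in the root, rose by 1.63. NAS4, a nicotianamine synthase that the MYB pair controls, rose by 2.23, and F6'H1, the enzyme that opens the coumarin branch, rose by 1.94. The summed level of the list (MYB72 included, in multiples of the 75th percentile) was 3.66 and 3.55 on the WT arrays and 10.3 on each ced2 array.

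Root marker genes moved with the groups in the same way. Of 11 root and root hair markers, 10 rose by limma (adjusted p under 0.05, as for all marker genes here). Of all genes tested, 42.4% were called higher and 35.6% lower. SCR did not pass (difference 0.09, limma adjusted p = 0.0916). The median difference of the 11 was 1.20, and IRT1 is on this list and on the iron list. The summed level of the root list was 1.65 and 1.67 on the WT arrays and 3.60 and 3.58 on the ced2 arrays. Much of the rise in that sum is CASP1 and IRT1, which had the largest differences, 2.63 and 3.37. The sum therefore does not speak evenly for the other root markers. None of the 11 was a member, and all were well above background on every array. Of 5 green shoot markers, 1 rose, 1 fell and 3 did not pass, with summed levels of 466 and 543 on the WT arrays and 432 and 366 on the ced2 arrays. Both genes on the trichome list, GL2 and GL1, fell, by 2.48 and 1.06. In RNA of whole seedlings, their signal in trichomes was not separated from that in other tissues, the root included. The part of root material in the differences of MYB72 and of the other root genes below was not tested.

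Further transcription factors among the members were LBD14, LBD29, BZIP49, BZIP34 and AIL7. They, and all other named members below that the fixed rule did not name, are given because the gene table names them. LBD14 and LBD29 belong to the family of LATERAL ORGAN BOUNDARIES domain factors, and LBD29 acts below auxin response factors when lateral roots start. Background-subtracted intensity of LBD14 was 8.41 and 4.74 on the WT arrays against 80.1 and 92.3 on the ced2 arrays, a difference of 3.37 and a bound of 4.89-fold. LBD29 had 4.12 and 6.54 on the WT arrays against 37.5 and 63.5, with a difference of 2.89 and a bound of 2.83-fold, and its WT arrays lay 1.01 apart on the log2 scale. In both genes the ced2 arrays were far above the WT arrays, but the WT values were too low to fix the fold.

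BZIP49, BZIP34 and AIL7 had smaller differences. BZIP49, a membrane-bound factor related to regulators of endoplasmic reticulum stress, had a difference of 2.15 and a bound of 3.45-fold. BZIP34, known for its part in pollen development, had 2.08 and 3.09-fold. AIL7, also called PLT7, an AINTEGUMENTA-like factor of meristems, had 11.6 and 12.2 on the WT arrays against 35.2 and 42.9 on the ced2 arrays, a difference of only 1.28. Its WT signal lay above the lowest detected signal on both WT arrays, so its 2.42-fold is a measured ratio. FAF4, of a small family that limits shoot meristem size, was 3.07-fold higher, also a measured ratio (difference 1.62).

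Hormone genes were present in auxin, cytokinin and gibberellin pathways. PIN5 encodes a short auxin carrier of the endoplasmic reticulum, which moves auxin inside the cell. Its intensity was 2.57 and 4.61 on the WT arrays against 59.5 and 73.5 on the ced2 arrays, a difference of 3.66 and a bound of 3.81-fold. SAUR25 (AT4G13790), of the SMALL AUXIN UPREGULATED RNA family, was the second brightest member, with 13.8 and 11.8 on the WT arrays against 151 and 175. It differed by 3.24 and was at least 8.82-fold higher. CKX1, a cytokinin oxidase that breaks cytokinins down, had 13.3 and 11.6 on the WT arrays against 72.1 and 85.0, a difference of 2.28 and a bound of 4.25-fold. GA3OX2, which makes bioactive gibberellins, had 10.4 and 9.44 on the WT arrays against 37.5 and 50.5, a difference of 1.76 and a bound of 2.37-fold. The ced2 arrays of all 4 genes agreed within 0.22 on the log2 scale.

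Small secreted peptides were also among the members. LCR85, a low-molecular-weight cysteine-rich peptide of the defensin-like kind, had 6.90 and 2.80 on the WT arrays against 62.7 and 75.6 on the ced2 arrays (difference 3.51, bound 4.35-fold). RGF8, also called GLV6, is a root meristem growth factor; its ced2 arrays gave 94.4 and 62.4 and its difference was 2.24, at least 4.60-fold. CLE4, of the CLAVATA3/ESR-related signalling peptides, differed by 2.21 and was at least 2.66-fold higher. Among these, LCR85 and CLE4 had ced2 arrays within 0.05 of each other but WT arrays more than 1 apart on the log2 scale, whereas RGF8 had the reverse pattern of a ced2 gap of 0.87 and a WT gap of 0.19.

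Enzymes of oxidation included cytochromes P450 and laccases. CYP76C7 had the largest difference of all members, 4.61, with intensities of 0.955 and 1.58 for WT replicates 1 and 2, against 121 and 77.8 for ced2 replicates 1 and 2. Its WT signals did not pass even the weaker flag, and the bound was 5.88-fold. CYP94D1, of a subfamily whose relatives act on fatty acids, and CYP71A20 differed by 2.27 and 1.78, with bounds of 1.50-fold and 3.19-fold. Laccases are copper enzymes that oxidize phenolics in the wall. LAC2, LAC6 and LAC9 (AT5G01050) lay close together, with differences of 1.87, 1.80 and 1.74 and bounds of 2.26-fold, 3.31-fold and 2.04-fold.

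Enzymes of wall polysaccharides were FUT5, GH9B6 and PGSIP4. FUT5, a fucosyltransferase, had 0.469 and 0.569 on the WT arrays against 31.2 and 41.1 on the ced2 arrays, a difference of 3.19 with a bound of 1.96-fold. GH9B6, of the glycosyl hydrolase 9 family of endoglucanases, differed by 2.54 (at least 3.68-fold). PGSIP4, also called GUX4 and named for glucuronic acid substitution of xylan, differed by 1.86 (at least 2.89-fold). GH9B6 and PGSIP4 passed the weaker flag on both WT arrays and FUT5 on neither.

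BGLU19 and OLEO2 were among the members too. BGLU19, a member of the beta-glucosidase family, had 8.50 and 6.37 on the WT arrays against 92.7 and 108 on the ced2 arrays, a difference of 3.34 and a bound of 5.99-fold. OLEO2, an oleosin that coats seed oil bodies, had 13.9 and 12.3 on the WT arrays against 72.7 and 49.8 (difference 1.80, bound 3.32-fold). A second OLEO2 probe was dimmer, with log2 signals of -9.64 and -9.71 on the WT arrays and -7.90 and -7.45 on the ced2 arrays, and was well above background on ced2 replicate 2 alone. Seed markers did not follow a single direction beside it. CRA1 rose by 2.30, and EM1, FUS3 and LEC1 fell by 1.68, 2.27 and 0.91 (limma adjusted p between 0.00019 and 0.0067). CRU3, OLEO1 and SESA1 were not tested and had differences of 2.44, 1.86 and 0.68, also higher in the ced2 files. OLEO1 and SESA1 were dim on all 4 arrays, and CRU3 was well above background on ced2 replicate 2 alone. The summed level of the seed list was 1.41 and 1.35 on the WT arrays and 0.517 and 0.495 on the ced2 arrays. That sum is mostly EM1, with log2 signals of 0.44 and 0.39 on the WT arrays and -1.22 and -1.30 on the ced2 arrays. It therefore does not speak for the other seed markers. The part of the seed markers in the OLEO2 difference was not tested.

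The members named for reproductive development were EDA41 and EDA32, from mutants with arrested embryo sacs, with differences of 3.48 and 3.02. EDA41 had ced2 intensities of 93.2 and 39.9, which lay 1.50 apart on the log2 scale, and EDA32 had 69.8 and 76.4. Of 7 pollen and anther markers, 4 (VGD1, MS2, A9 and GRP17) were dim on all 4 arrays, 1 (TPD1) rose by 0.30 and 2 did not pass. Their summed level was 2.44 and 2.33 on the WT arrays and 2.90 and 2.95 on the ced2 arrays. That sum is almost all TPD1, with log2 signals of 1.27 and 1.21 on the WT arrays and 1.52 and 1.54 on the ced2 arrays. Of 6 flower organ markers, 4 rose and 2 did not pass, where 42.4% of all genes tested were called higher. AP3 rose the most, by 1.77. The flower list summed to 0.432 and 0.413 on the WT arrays and 0.519 and 0.528 on the ced2 arrays. The part of floral material in the differences of BZIP34, EDA41 and EDA32 was not tested.

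The remaining named members act in varied parts of the cell. UCL1, an F-box protein that targets the Polycomb methyltransferase CURLY LEAF for degradation, had -0.583 and -1.09 on the WT arrays against 38.6 and 55.6 on the ced2 arrays. Its WT values were below 0 after background subtraction, and it was at least 2.67-fold higher. RBL7, a rhomboid-like protein, was among the 8 brightest members, with 13.7 and 11.6 on the WT arrays against 114 and 129.7 and a bound of 6.45-fold. RPB5E, a version of an RNA polymerase subunit, was at least 4.97-fold higher, and PUM17, of the Pumilio RNA-binding family, at least 2.45-fold. CID5, also called IPD1, had ced2 intensities of 68.7 and 28.6, a gap of 1.55 on the log2 scale, and a bound of 2.82-fold.

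Of the membrane and cytoskeletal genes, SWEET14, a sugar exporter, had a large difference of 3.06 but a bound of only 1.94-fold. Its second probe had log2 signals of -9.18 and -9.77 on the WT arrays and -8.55 and -7.58 on the ced2 arrays, a difference of 1.41, and was well above background on ced2 replicate 2 alone. Without ced2 replicate 1 that other probe was the brighter, and the difference of the locus was 1.89. RABB1a, a small GTPase of vesicle traffic, TRM24, a protein with a TON1 recruiting motif, and PHB7, a prohibitin, differed by 1.71, 1.72 and 1.17. GAD3, a glutamate decarboxylase that makes the stress-related amino acid GABA, differed by 1.67 and was 3.19-fold higher, a measured ratio. CRK5, a cysteine-rich receptor-like kinase, lay close to the limit, with 16.0 and 12.8 on the WT arrays against 34.7 and 47.0 on the ced2 arrays and a difference of 1.08.

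Most members carry no name beyond their locus. The gene table named 38 of the 144 (26.4%), against 43.1% of all loci on the array, so gene families are described without a count over the members, which would be void. Named and unnamed members had similar median differences, 2.26 and 2.13. Among the unnamed, AT5G55410 was the brightest member, with 16.3 and 11.3 on the WT arrays against 166 and 191 on the ced2 arrays, a difference of 3.28 and a ratio of 9.68-fold, which is measured because its WT signal lay above the lowest detected signal. AT4G16230, AT2G26380, AT2G36710 and AT3G29110 were also among the 8 brightest, with at least 7.32-fold, 7.05-fold, 6.82-fold and 5.99-fold. AT2G26380 differed from the other 3 in its lower WT intensities, 5.51 and 6.76.

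The unnamed loci that led by difference were less even between replicates. AT3G56180 had -2.84 and -0.0221 on the WT arrays against 40.2 and 155 on the ced2 arrays, a difference of 4.32 with both WT values at the level of noise, and a bound of 4.47-fold. AT2G20465 showed the opposite order, with 4.83 and 2.14 on the WT arrays against 134 and 42.9 and a bound of 4.43-fold. AT5G51360 had 1.50 and 3.41 on the WT arrays against 32.5 and 114 and a bound of 3.55-fold. In these 3 genes the ced2 arrays lay 1.54 to 1.91 apart on the log2 scale, and AT3G21490 had a gap of 1.11. Second probes of AT3G56180 and AT3G21490 were dim on all 4 arrays and differed by 0.26 and 0.30. AT1G30020, AT1G44020, AT5G50423, AT1G53820, AT1G68960, AT3G20360, AT4G08867 and AT4G08780 are also among the 20 largest, with ced2 arrays less than 0.9 apart and bounds between 2.70-fold (AT1G68960) and 5.12-fold (AT4G08780). The WT arrays of AT4G08780 lay 1.74 apart.

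**Figure D3:**
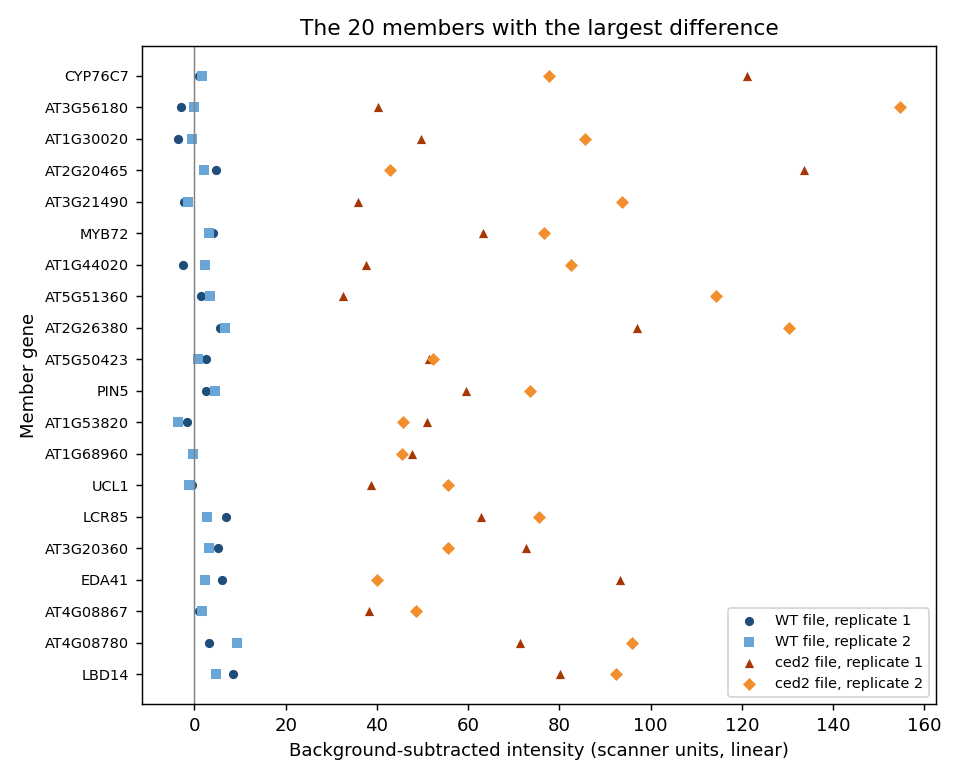
Background-subtracted intensity, on a linear scale in scanner units (x axis), of the 20 members with the largest difference (y axis), with a point for each of the 4 arrays. WT points lie within 10 units of 0, and ced2 points lie between 32.5 (AT5G51360) and 155 (AT3G56180), with wide gaps between the ced2 replicates of some genes.

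At the minimum difference of 1, the members just inside were AT1G44180, CRK5 and AT1G14500, at 1.12, 1.08 and 1.004. Just outside, with the same flags, were AT4G12530 at 0.97 and AT5G17200 at 0.53, and no other locus. At this minimum, the flags therefore all but set the size of the list. By position in the array's detection classes, 19950 loci were well above background on all 4 arrays, 3584 on none and 20257 on both ced2 arrays, of which the members are 0.711%. The rule turned round, for genes seen in the WT files alone, gave 126 genes with a median difference of -2.14. Its bright side had a median of -6.77 and its brightest gene -3.28, against -6.35 and -4.38 for the members, and these were not tested against each other.

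A second probe gives a further reading of a gene from the same arrays. Only 20 members had one, and 86.1% had a single probe against 72.8% of all loci. In 3 genes the second probe showed the same pattern of flags: AT3G32030, SAUR25 (AT4G13790) and AT5G37478, with differences of 3.60, 3.31 and 2.58 against 2.95, 3.24 and 2.89 for the first probe. In 11 genes the second probe was dim on all 4 arrays. Among them were CYP76C7, AT3G56180, AT3G21490 and RPB5E, where it differed by 0.87, 0.26, 0.30 and 1.35. The remaining 6 had another pattern, chosen for naming after their values were seen. The second probe of AT5G36960 was well above background on all 4 arrays and differed by -0.18, and that of AT1G26790 was so on WT replicate 1 alone and differed by -0.62. In those 2 genes the probes disagree on which files hold the signal. Across the 20, the second probe was higher in the ced2 files in 17 and by more than 1 in 8.

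**Figure D4:**
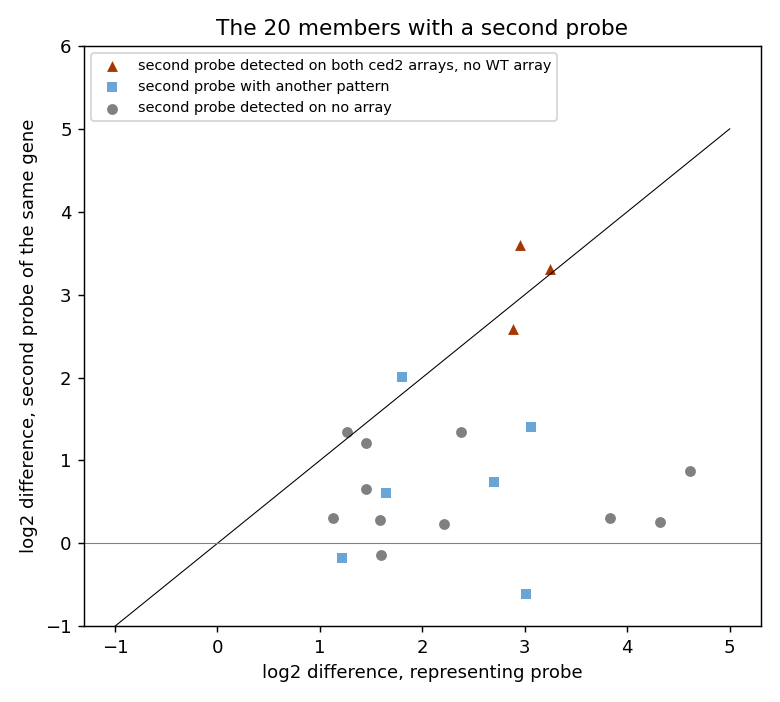
Log2 difference (ced2 files minus WT files) of the second probe (y axis) against that of the probe that represents the gene (x axis) for the 20 members with a second probe, with symbols for the arrays on which the second probe was well above background. The 3 triangles near the line of equality are AT3G32030, SAUR25 and AT5G37478; most other points lie below it.

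The members did not gather in the genome beyond 1 pair of neighbours. Among the loci on the array, AT3G02610 and AT3G02620 lie next to each other, with differences of 1.91 and 2.45. AT3G02610 was at least 1.80-fold higher, and AT3G02620 was 5.45-fold higher, a measured ratio. Probes may not separate similar neighbours. By the number in the locus name, 39 members lay on chromosome 1, 20 on 2, 31 on 3, 26 on 4 and 28 on 5. These are 27.1%, 13.9%, 21.5%, 18.1% and 19.4% of the members, beside 26.1%, 15.6%, 19.9%, 15.0% and 23.3% of all loci. The loci beside a member, which the rule did not choose, were near the background: of 215 tested, 97 rose and 64 fell (45.1% and 29.8%, against 42.4% and 35.6% of all genes tested, limma adjusted p under 0.05). On the array surface, the member spots fell 26, 38, 39 and 41 into 4 successive bands of spot rows of equal width.

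The size of a member's difference depended on how the background was treated. Between-array quantile scaling kept the median near its value, at 2.03. With the local background subtracted and the same offset of 50 added on every array, a setting chosen after seeing the data, the median was 0.275 and 2 members, AT5G55410 and SAUR25, still differed by more than 1. The limma fit then called 63 members higher in place of 137. An offset of 50 is as large as the median member's intensity on the ced2 arrays. SAUR25 and AT5G55410 then led, at 1.17 and 1.17, and CYP76C7 and AT3G56180, which had the largest differences before, stood at 0.92 and 0.83. With normexp background correction and 75th percentile scaling, also chosen after seeing the data, the direction turned: the median was -0.918, 142 of the 144 differences were at or below 0, and limma called 0 members higher. The fitted normexp background was -83.4 and -98.5 on the WT arrays and 6.00 and 5.10 on the ced2 arrays. The correction thus added 133 and 148 to the median WT spot, but 44.0 and 44.9 to the median ced2 spot. The median member had only 46.7 and 53.7 on the ced2 arrays. Additions this unequal can set the sign for genes this dim, so no direction is read from that setting.

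**Figure D5:**
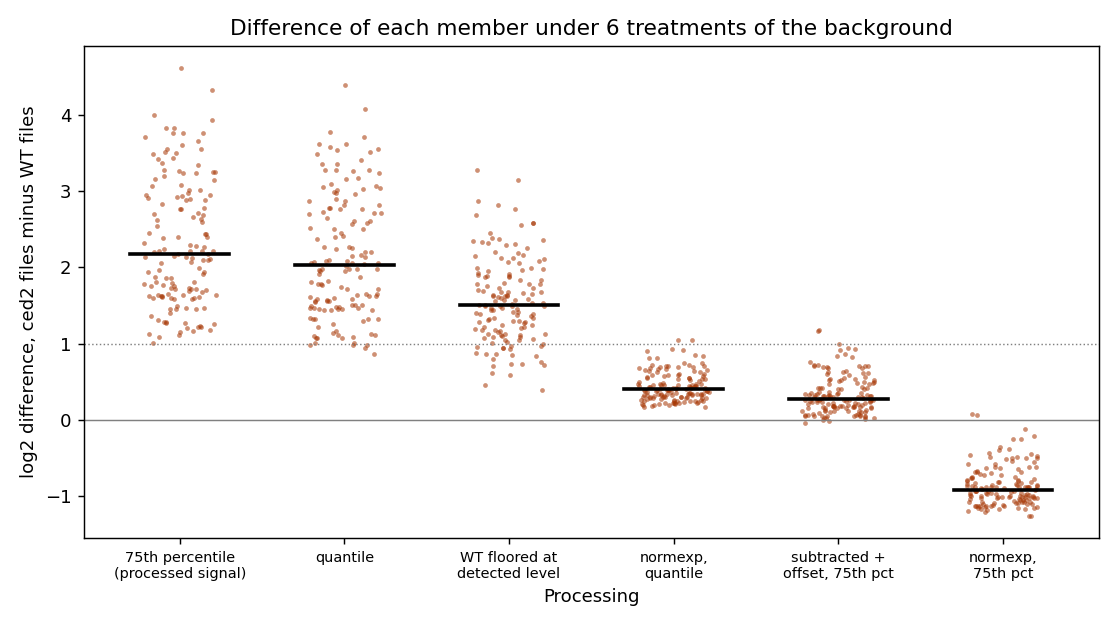
Log2 difference (ced2 files minus WT files, y axis) of each of the 144 members under 6 treatments of background and scaling (x axis), with black bars at the medians. The medians are 2.17, 2.03, 1.50, 0.398, 0.275 and -0.918 from left to right; the dotted line marks the minimum difference of 1.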

How the data were processed

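Total RNA of 4 pools of seedlings was labelled with Cy3, per the labels, and scanned spots were quantified by Agilent's Feature Extraction software, version 10.7.1.1, per the submitters' processing notes. The deposited scanner files hold linear intensities per spot (processed, background-subtracted and median signals, local background, error) and 0 or 1 flags, per the file headers, which were not normalized between arrays. The deposited value table holds log2 values whose scale and centring the file does not state. Set against the scanner files its values are log2 processed signals from which the 75th percentile of each array was taken, with the median of each probe over the 4 arrays moved to 0, under exchanged genotype labels. Its direction therefore stays unsettled, and its column medians were 0.08 and -0.03 (WT) and 0.01 and -0.03 (ced2).

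Control and outlier spots were left out, spots of a probe averaged, and log2 of the processed signal taken minus the 75th percentile of the array over 43533 probes. Accessions were matched to the RefSeq table of TAIR10.1: 34236 probes had a locus and 9297 had none. That table served for names and gene order alone, since the header names an older build. A probe was well above background where most of its spots carried that flag. Genes detected on both arrays of a group (20835) were fitted with limma 3.58.1 (R 4.3.3), two-sided, with Benjamini-Hochberg adjustment, 2 residual and 1.49 prior degrees of freedom. The fit was tested on simulated data. Replicates are separate pools of plants, per the labels. The number of arrays limits precision, and p-values measure only the spread between these samples.

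The members and lists were chosen with earlier results of these data known. Named by rule were the 20 largest differences, the 8 highest ced2 means, members on the fixed lists, members with an agreeing second probe (up to 8), those nearest the minimum and neighbouring members, 36 loci in all. No sequences were used here.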

Additional observations from a re-analysis of the deposited data

How the results depend on the processing

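Rules near the main one took 139 genes with quantile normalization (139 of them members), 154 with probes averaged and 144 with every spot flagged. The detection flags do not change with scaling, and only 50 probes had several spots. The quantile and every-spot counts were therefore all but fixed in advance and do not test the list. The count moved to 82 at a minimum difference of 2, to 92 with the weaker flag (16 shared), to 16 when members had also to fail the weaker flag on both WT arrays, and to 2 with normexp. It was 2 with the same offset on every array and 0 with normexp and 75th percentile scaling, where 0 members were called higher by limma. With normexp and quantile scaling, limma still called 136 members higher, and the smallest difference was 0.165. As before, nothing is read from the count of calls. Without 1 array the rule asks for fewer flags and took 191 to 355 genes, 191 without WT replicate 1, 230 without WT replicate 2, 355 without ced2 replicate 1 and 284 without ced2 replicate 2, of which 143, 144, 132 and 142 were members. The median difference was 2.03 with quantile normalization, 1.50 with WT values floored at the lowest detected signal, 1.94 over members above noise on both WT arrays, 2.07 to 2.26 without 1 array, 0.398 with normexp and 0.275 with the same offset, where 63 members were called higher. It reversed to -2.17 in the authors' value table, where each column held a scanner file of the other genotype, and to -0.918 with normexp and 75th percentile scaling. The normexp fits differ between groups: the background mean was -83.4 and -98.5 on the WT arrays against 6.00 and 5.10 on the ced2 arrays, which added 133 and 148 to the median WT spot but 44.0 and 44.9 to the ced2 spots. The brightest member intensity was 191. The same offset, normexp with 75th percentile scaling, the subsets of members by the weaker flag (16 genes, and the median over those above noise) and a stricter brightness rule (121 genes) were chosen after seeing the data. With the replicate number as a block, limma called 134 members and 8574 genes higher; same-numbered arrays share only a number (r of deviations 0.0473). Of the genes named by the rule, AT3G56180, AT2G20465, AT5G51360 and AT3G02610 lost the limma call when either WT array was left out, EDA41 without WT replicate 2 and AT4G08780 without either ced2 array. Of the other named members, CID5, OLEO2 and PHB7 lost it without either WT array, CYP94D1 without WT replicate 1, RGF8 without WT replicate 2, BZIP49 without ced2 replicate 1 and CLE4 without either ced2 array. Their differences stayed within 1.5 times in these fits (4.38 and 4.26 for AT3G56180). Without ced2 replicate 1, those of AT3G02610, CID5 and PHB7 moved further, to 1.19, 1.21 and 0.70. Counts of genes called over the whole array stayed within 1.5 times under every alternative in which they were recounted.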
